A study of Mus musculus with 2 samples.

Results

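The genes of oxidative phosphorylation were examined in single cells of mouse spleen, as 99 members chosen by symbol. Rows qualified when the symbol began with Nduf (a, b, c, s or v), Cox4 to Cox8, Uqcr, Atp5 or Sdh, or named a protein encoded in mitochondrial DNA. Of 27998 gene rows, 105 matched, and 99 held at least 50 unique molecular identifiers (UMIs, each marking a captured transcript) over both libraries. The 86 nuclear members were 36 genes of complex I, 4 of complex II, 8 of complex III, 14 of complex IV, 15 of complex V and 9 assembly factors or associated genes. The other 13 were the mitochondrially encoded subunits. Cox7a1 with 66 UMIs, Atp5s with 88 and mt-Nd6 with 191 lay just inside the limit. Cox6a2 with 32 UMIs and Cox4i2 with 27 lay just outside it, and Cox7b2, Cox8b, Cox8c and Ndufa4l2 had 0 in both libraries.

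Oxidative phosphorylation takes place at the inner mitochondrial membrane. Complexes I and II pass electrons to ubiquinone, complex III passes them on to cytochrome c, complex IV reduces oxygen, and complex V makes ATP from the proton gradient that complexes I, III and IV build. Mitochondrial DNA encodes core subunits of all of these except complex II, and the nuclear genome encodes the rest. Mature neutrophils are known for few mitochondria and a reliance on glycolysis, whereas monocytes and B cells keep a larger mitochondrial network.

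The cells were CD11b+ Gr1+ spleen cells isolated by flow cytometry and loaded on droplets for 3′ transcript counting. The control library pooled the spleens of 5 wild-type mice of the FVB/n strain. The PyMT library pooled the spleens of 3 tumour-bearing PyMT mice, whose strain label is PYMT; the name refers to a polyoma middle T mammary tumour model, and the promoter, the age and the background are not given in the sources used here. With 1 library from pooled animals in each group, differences between the groups carry no replicate error and were not tested. Every interval below is an exact 95% interval for counting error only.

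In wild type there were 5491 cells with 42542700 UMIs (median 5668 per cell) and in PyMT 9155 cells with 73435307 UMIs (median 7063), of which 4 PyMT cells with under 200 genes were left out. The libraries shared 72 barcode sequences. UMIs were summed within 5 classes set by thresholds: neutrophils (S100a8 and S100a9 at 10% or more of UMIs, fewer than 2 Cd79a and Cd79b UMIs), split by the granule gene Camp into high (4% or more), mid (1 to 4%) and low (under 1%), monocytes (S100 genes under 5%, at least 2 Csf1r and Ccr2 UMIs) and B cells (S100 genes under 5%, at least 3 Cd79a and Cd79b UMIs). Wild-type and PyMT cell numbers were 3456 and 1619 Camp-high, 468 and 1812 Camp-mid, 56 and 2058 Camp-low, 601 and 1597 monocytes, and 375 and 1152 B cells. The wild-type Camp-low sum rests on 229891 UMIs, the smallest of the 10. In each library 71 cells met both the monocyte and the B cell rule and were counted in both, and 606 and 984 cells met no rule.

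The classes were checked against marker genes that had not set them. Ly6g, a neutrophil surface marker, was at 647 to 1080.2 UMIs per 1000000 (CPM) in the 6 neutrophil sums and at 34.3 to 41.0 in the others. F13a1 reached 291 and 527 CPM in the wild-type and PyMT monocytes, and Ms4a1, the gene of CD20, 1045 and 1500 in the B cells, so B cells were present despite the sort. Some neutrophils also held at least 2 Csf1r or Ccr2 UMIs: 6.92%, 31.6% and 12.5% of the wild-type Camp-high, mid and low cells, and 2.1%, 7.56% and 6.32% of the PyMT ones. These cells carried 54.5% of the UMIs of the wild-type Camp-mid sum and 12.8% of the PyMT one, so the main comparisons of neutrophils below are also given without them. Their median UMIs were 16553, 11093 and 8817 in wild-type Camp-high, mid and low cells, against 5593, 4003.5 and 3196 in the rest. In PyMT the medians were 13344.5, 17552 and 7515.5, against 11514, 9289 and 3954. Leaving these cells out thus also removes deeper cells, and the part of depth was not tested.

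The nuclear members together were lowest in neutrophils and highest in monocytes. In wild type they took 1.30%, 1.47% and 1.16% of the UMIs of Camp-high, Camp-mid and Camp-low neutrophils, 2.40% of monocytes and 1.95% of B cells. In PyMT the shares were 1.05%, 1.01% and 0.843% in the neutrophils, 2.62% in monocytes and 1.78% in B cells. S100a8, S100a9, Camp and the other genes of the class rules took 27.6% to 41.0% of neutrophil UMIs and 1.18% to 2.14% of the others. With those genes taken out of the total, the order changed in part: the wild-type shares were 2.13%, 2.03%, 1.73%, 2.43% and 1.98%, and the PyMT shares 1.77%, 1.62%, 1.24%, 2.67% and 1.82%, in the same class order. Wild-type Camp-high and Camp-mid neutrophils were then above the wild-type B cells, while monocytes remained the highest class in both libraries. In cells thinned to 1000 UMIs, the median cell held 12, 11, 7, 24 and 18 nuclear UMIs in wild type and 10, 9, 7, 26 and 17 in PyMT.

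**Figure D1:**
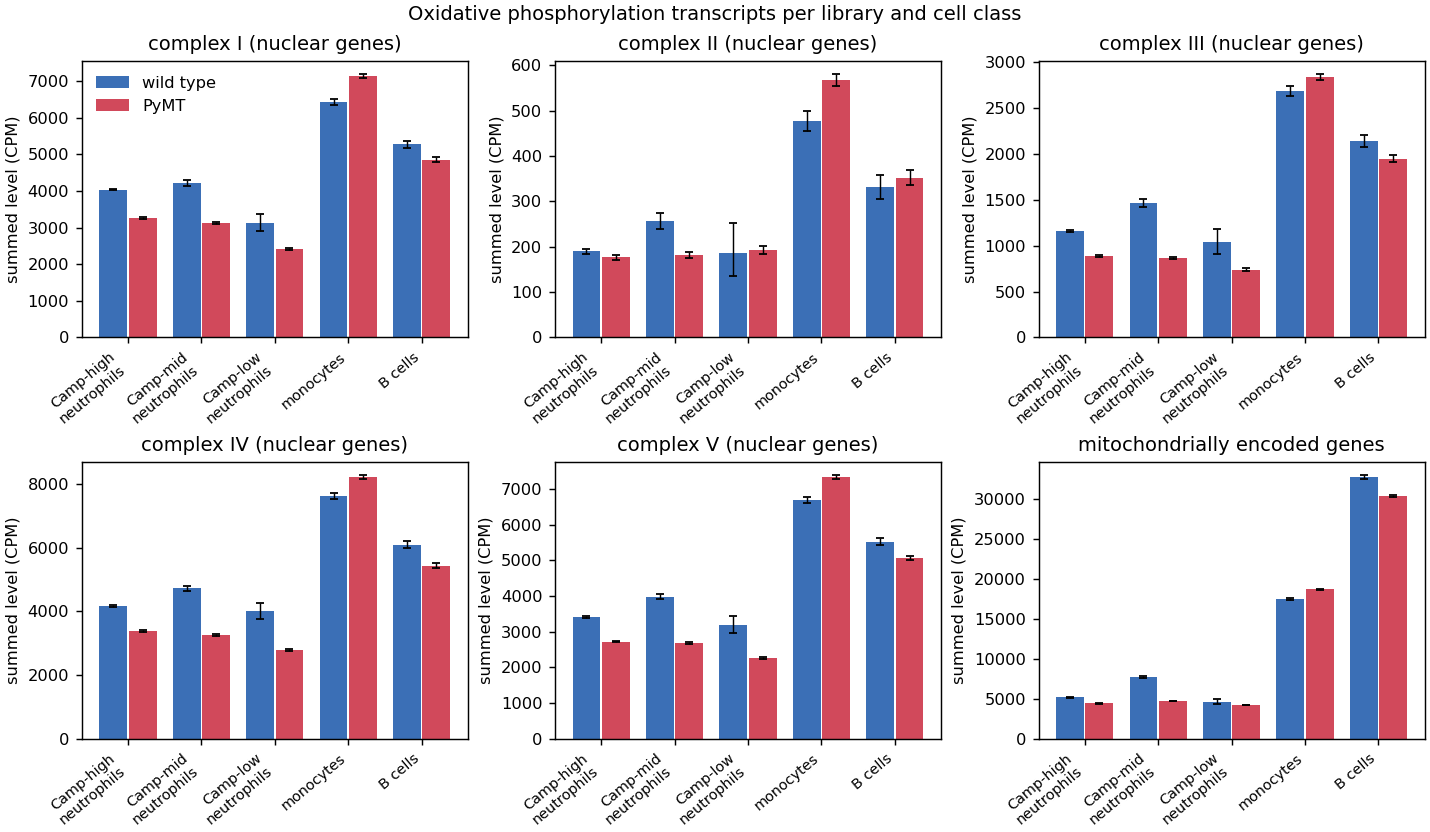
Summed level of each complex and of the mitochondrially encoded genes in the 5 classes of both libraries (y axis in CPM, from 0; blue bars wild type, red bars PyMT; error bars are exact 95% Poisson intervals for counting error). Monocytes have the highest bars of each nuclear complex and B cells of the mitochondrially encoded genes, and the mitochondrially encoded sum runs from 4184 CPM in PyMT Camp-low neutrophils to 32713 CPM in wild-type B cells.

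Complex I, the NADH dehydrogenase, was summed over 36 genes. Its level was 4036, 4219, 3136, 6425 and 5269 CPM in wild-type Camp-high, Camp-mid, Camp-low, monocyte and B cell sums, and 3271, 3123, 2416, 7139 and 4853 in the PyMT sums. Among its genes, Ndufa6 and Ndufa2, accessory subunits, had the highest mean level. Because UMIs count transcript 3′ ends, levels of different genes were set side by side without scaling to length. Ndufa6 stood at 225, 279, 200, 547 and 419 CPM in wild type and at 144, 145, 128, 501 and 349 CPM in PyMT, in the same order of classes, which is kept below. Ndufa2 stood at 270, 275, 217, 449 and 408 CPM in wild type and at 177, 168, 138, 410 and 324 in PyMT. Both genes were higher in monocytes and B cells than in every neutrophil sum, and lower in PyMT than in wild type in all 5 classes.

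Complex II, the succinate dehydrogenase that also serves the citric acid cycle, had 4 genes and the lowest sums: 190, 256, 187, 477 and 331 CPM in wild type and 176, 181, 192, 567 and 351 in PyMT. Sdhb, the iron-sulfur subunit, led with 81.2, 108, 73.9, 223 and 136 CPM in wild type and 76.4, 78.5, 69.7, 265 and 131 in PyMT. Sdhd, a membrane anchor, followed with 53.1, 71.5, 65.2, 126 and 69.0 CPM in wild type and 48.6, 53.9, 72.0, 150 and 66.4 in PyMT. The other anchor, Sdhc, lay between 15.8 and 70.1 CPM. The flavoprotein Sdha was at 26.7, 46.3, 30.4, 69.7 and 89.5 CPM in wild type and at 26.4, 28.4, 34.9, 81.8 and 109 in PyMT. Sdha was thus highest in B cells, while Sdhb, Sdhc and Sdhd were highest in monocytes, in both libraries.

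Complex III sums were 1161, 1465, 1040, 2684 and 2144 CPM in wild type and 886, 864, 737, 2839 and 1946 in PyMT. Uqcrh, the hinge protein of the complex, was its most abundant gene, with 284, 444, 322, 880 and 819 CPM in wild type and 207, 229, 230, 826 and 724 in PyMT. Uqcrq, a small accessory subunit, had 176, 212, 196, 342 and 249 CPM in wild type and 140, 137, 136, 385 and 208 in PyMT. Uqcrh differed more between classes than Uqcrq: from Camp-high neutrophils to B cells it went from 284 to 819 CPM in wild type, against 176 to 249 for Uqcrq.

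Complex IV, cytochrome c oxidase, had nuclear sums of 4171, 4725, 3993, 7626 and 6089 CPM in wild type and 3386, 3249, 2793, 8218 and 5434 in PyMT. Cox4i1, the general isoform of subunit 4, was the most abundant nuclear member in the data, with 520, 771, 570, 1381 and 1077 CPM in wild type and 494, 484, 423, 1500 and 947 in PyMT. Cox8a had 589, 653, 626, 870 and 786 CPM in wild type and 418, 438, 485, 961 and 699 in PyMT. Cox4i1 overlaps a same-strand model (Gm20388) in GENCODE M21. How reads were assigned between them was not examined, so its level is uncertain. The same holds for Ndufa13, Ndufb2, Ndufb8 and Ndufb9 of complex I, which overlap other same-strand models.

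The isoform pairs of complex IV were uneven. Cox6a1, Cox6b1, Cox7a2 and Cox8a, the forms found in most tissues, stood at 175 CPM or more in every sum. Cox7a1, a muscle form, did not exceed 1.29 CPM in any sum. Cox6b2, known from testis, was measurable at 16.7, 16.6, 13, 41.8 and 12.6 CPM in wild type and at 8.89, 6.89, 4.10, 45.1 and 6.46 in PyMT, with monocytes the highest in both. Cox7a2l, which helps complexes III and IV associate, was at 181, 323, 217, 707 and 629 CPM in wild type and 194, 223, 261, 777 and 654 in PyMT, a wider range over classes than that of Cox7a2 (307 to 402 CPM in wild type, 175 to 410 in PyMT). Ndufa4, named as a complex I gene but later placed in complex IV, stood at 231, 242, 165, 444 and 368 CPM in wild type and 134, 116, 85.6, 506 and 331 in PyMT.

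Complex V, the ATP synthase, had sums of 3411, 3985, 3188, 6693 and 5527 CPM in wild type and 2720, 2675, 2265, 7341 and 5064 in PyMT. Atp5l, subunit g of the membrane part, led with 497, 636, 652, 1001 and 650 CPM in wild type and 390, 414, 513, 1016 and 570 in PyMT. Atp5e, the epsilon subunit, had 499, 579, 413, 819 and 757 CPM in wild type and 317, 313, 273, 773 and 628 in PyMT. Atp5g1, Atp5g2 and Atp5g3 encode the same mature ring subunit c. Atp5g2 was the highest of these in all 10 sums, at 142, 185, 95.7, 400 and 483 CPM in wild type and 79.7, 78.2, 53.5, 450 and 466 in PyMT. Atp5g1 ranged from 31.1 to 297 CPM and Atp5g3 from 37.7 to 180 CPM.

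The makeup of the nuclear sum differed between Camp-high neutrophils and the monocytes and B cells. Complex I took 31.0% of the nuclear UMIs in wild-type and 31.2% in PyMT Camp-high neutrophils, against 26.7% to 27.2% in monocytes and B cells. The other neutrophils lay between or within that range, at 28.7% and 30.8% in wild-type and PyMT Camp-mid and 27.1% (25.4% to 28.8%) and 28.7% in Camp-low cells. Complex III took 8.92% and 8.46% in Camp-high neutrophils, 8.54% to 9.96% in the other neutrophils and 10.8% to 11.2% in monocytes and B cells. The assembly factors and associated genes took 0.358% and 0.308% in Camp-high neutrophils, 0.540% and 0.519% in monocytes, and 0.753% and 0.993% in B cells. These shares do not depend on how the libraries were scaled.

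The 13 mitochondrially encoded members summed to 5140, 7671, 4611, 17518 and 32713 CPM in wild type and to 4412, 4730, 4184, 18697 and 30381 in PyMT. For each nuclear UMI of the pathway there were 0.395, 0.522, 0.398, 0.729 and 1.68 mitochondrial UMIs in wild type, and 0.421, 0.467, 0.496, 0.713 and 1.70 in PyMT. B cells were therefore the only class in which mitochondrial transcripts of the pathway outnumbered the nuclear ones, in both libraries, although monocytes had the higher nuclear level. The median cell thinned to 1000 UMIs held 3, 3, 2, 17 and 34 mitochondrial UMIs in wild type and 4, 3, 3, 18 and 30 in PyMT.

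The neutrophils differed from the other classes in which mitochondrial transcripts they held. The complex I genes (mt-Nd1 to mt-Nd6 and mt-Nd4l) took 14.5% of the mitochondrial UMIs of wild-type Camp-high neutrophils (14.3% to 14.7%) and 8.71% of the PyMT ones (8.53% to 8.91%). The share was 17.8% and 10.6% in Camp-mid, and 17.0% (14.8% to 19.4%) and 12.2% in Camp-low neutrophils. It reached 20.6% and 19.4% in monocytes, and 24.4% and 23.5% in B cells. The gene mt-Co1, the catalytic subunit of complex IV, went the other way, with 28.3%, 23.5%, 25%, 20.1% and 16.0% in wild type and 35.3%, 34.2%, 34.2%, 18.5% and 14.5% in PyMT. The share of mt-Atp6, a subunit of the proton channel of complex V, varied less, from 15.7% to 20.4% in wild type and from 15% to 22.1% in PyMT.

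**Figure D2:**
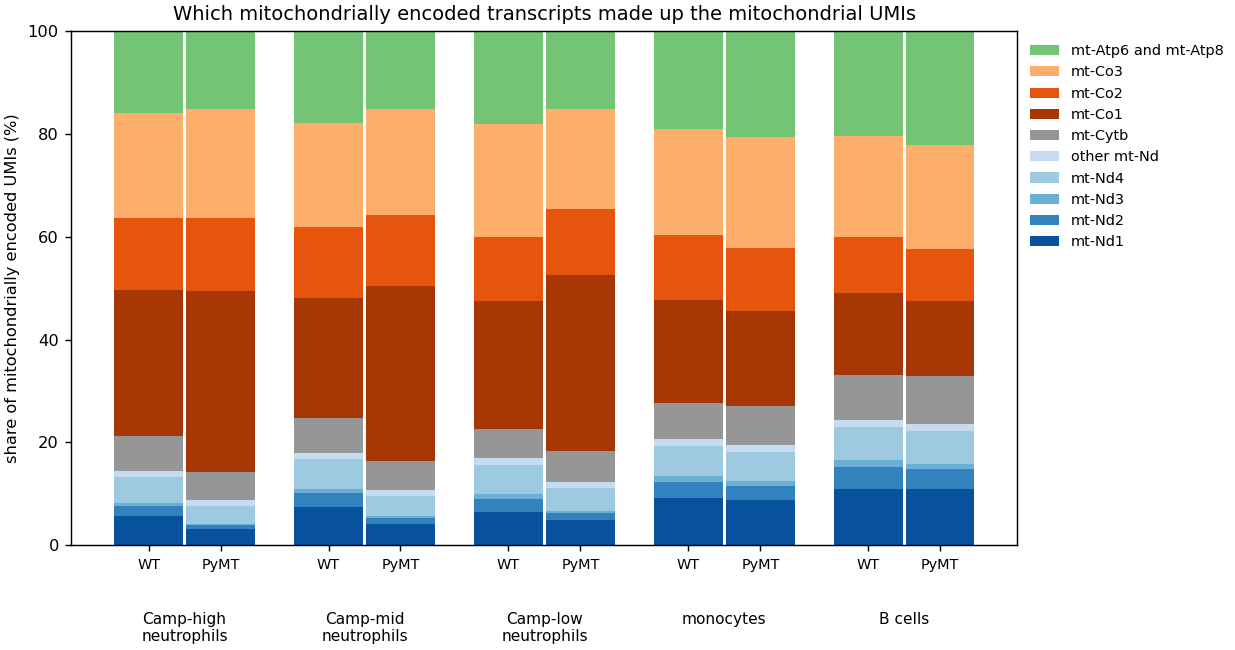
Share of the mitochondrially encoded pathway UMIs taken by single genes in the 5 classes of both libraries (stacked bars, percent of summed UMIs; blue shades are complex I, grey is mt-Cytb, brown and orange shades are complex IV, green is complex V). The complex I genes take 8.71% of the PyMT and 14.5% of the wild-type Camp-high UMIs, and 24.4% and 23.5% in wild-type and PyMT B cells.

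Set against mt-Co1, the mitochondrial complex I genes had 0.512, 0.760, 0.679, 1.03 and 1.52 UMIs per mt-Co1 UMI in wild type and 0.247, 0.311, 0.358, 1.05 and 1.62 in PyMT. In Camp-high neutrophils this ratio lay between 0.446 and 0.512 in wild type and between 0.234 and 0.247 in PyMT over the 7 ways of choosing or weighting cells that were run. In Camp-mid neutrophils the ranges were 0.583 to 0.760 and 0.235 to 0.311. The wild-type Camp-low ratio ran from 0.167 to 0.974 over the same settings, so its place relative to the PyMT value was not settled. Without the cells that held Csf1r or Ccr2 UMIs the wild-type and PyMT ratios were 0.446 and 0.241 in Camp-high, 0.583 and 0.235 in Camp-mid and 0.272 and 0.264 in Camp-low neutrophils. The ratio was higher in the neutrophils that did hold them, at 0.710 and 0.416, 0.828 and 0.643, and 0.987 and 0.814. Those neutrophils also had the higher median UMIs in each class and library. Transcripts of other cells in the same droplets and free RNA were not measured, and their part in these ratios was not tested.

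Single mitochondrial genes showed where that difference lay. mt-Nd1, a core membrane subunit of complex I, was at 293, 572, 300, 1598 and 3575 CPM in wild type and at 135, 193, 201, 1652 and 3319 in PyMT. mt-Nd2, its neighbour in the genome (chrM:3914-4951, GRCm38), was at 93.7, 200, 113, 569 and 1424 CPM in wild type and at 34.0, 53.4, 63.0, 507 and 1180 in PyMT. mt-Nd3 was at 34.9, 73.4, 47.8, 196 and 415 CPM in wild type and at 10.6, 20.1, 17.4, 165 and 278 in PyMT. For all 3 genes the PyMT Camp-high and Camp-mid neutrophils were below the wild-type ones, with and without cells of 2 classes. The wild-type Camp-low values rest on 69, 26 and 11 UMIs, and without cells of 2 classes the mitochondrial complex I genes together were higher in PyMT Camp-low cells, at 350 against 187 CPM (0.91, 0.40 to 1.47).

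mt-Nd4 was at 260, 434, 261, 1022 and 2134 CPM in wild type and at 157, 182, 183, 1079 and 1966 in PyMT. mt-Nd5, the largest of the mitochondrial complex I subunits, was at 43.5, 57.1, 43.5, 144 and 305 CPM in wild type and 36.4, 40.4, 37.5, 141 and 279 in PyMT. mt-Nd4l ranged from 9.90 to 125 CPM and mt-Atp8 from 0 to 41.6 CPM, but mt-Nd4l overlaps mt-Nd4 by 7 bases and mt-Atp8 overlaps mt-Atp6 by 43, so how reads were split within each pair is uncertain. mt-Nd6, the member on the opposite strand of the mitochondrial genome, did not exceed 6.32 CPM.

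The complex IV genes and mt-Atp6 made up most of the mitochondrial transcripts. mt-Co1 was at 1454, 1802, 1153, 3516 and 5248 CPM in wild type and at 1555, 1616, 1429, 3462 and 4398 in PyMT. mt-Co2 had 720, 1051, 574, 2212 and 3551 CPM in wild type and 630, 649, 540, 2318 and 3107 in PyMT. mt-Co3 had 1057, 1562, 1014, 3615 and 6415 CPM in wild type and 934, 978, 814, 4024 and 6108 in PyMT. Among these 3 genes mt-Co1 was the highest in neutrophils and mt-Co3 in B cells, in both libraries. The cytochrome b gene mt-Cytb, the mitochondrial subunit of complex III, had 351, 522, 257, 1230 and 2817 CPM in wild type and 240, 270, 256, 1416 and 2878 in PyMT. mt-Atp6 had 808, 1357, 831, 3318 and 6657 CPM in wild type and 664, 709, 629, 3824 and 6717 in PyMT, the highest mitochondrial level in the B cells of both libraries.

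Classes were next compared within each library, which keeps the tumour-bearing state and the library fixed. Relative to Camp-high neutrophils, 65 of the 84 nuclear members with at least 50 UMIs were at least 1.5-fold higher in wild-type monocytes and 1 was at least 1.5-fold lower. Over all 9171 genes with at least 50 UMIs, 61.1% were higher and 14.3% lower. In PyMT 78 of 84 were higher and 0 lower, against 74.3% and 8.89% of all genes. The member medians were 1.01 and 1.54 on the log2 scale in wild type and PyMT, and the medians of all genes 0.87 and 1.36. Members thus sat a little above the background, which is itself large, and the class-rule genes took 27.6% or more of every neutrophil total.

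In B cells the share of members that were higher lay near the background and the share that were lower below it. In wild type 47 of 83 nuclear members were higher and 2 lower, against 57.3% and 16.8% of all genes. In PyMT 55 of 83 were higher and 2 lower, against 68.7% and 13.4%. The member medians of 0.65 and 0.94 were below those of all genes, 0.79 and 1.31. The summed nuclear level was 0.88 and 1.33 higher in monocytes and 0.58 and 0.77 higher in B cells (log2, wild type and PyMT), and under other scalings it reached -0.01 and -0.04 in monocytes and -0.23 and -0.54 in B cells. The median of ratios moved the median of all genes by -0.88 and -1.36 in monocytes and by -0.81 and -1.31 in B cells. Relative to that median the members stayed at 0.14 and 0.18 in monocytes and at -0.14 and -0.37 in B cells.

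The mitochondrially encoded genes stood above the background in every such comparison. All 12 with at least 50 UMIs in wild type were at least 1.5-fold higher in monocytes and in B cells than in Camp-high neutrophils, as were all 13 in PyMT monocytes and all 12 in PyMT B cells. Their sum was 1.77 and 2.08 higher in monocytes and 2.67 and 2.78 higher in B cells (log2, wild type and PyMT). Over the 12 alternatives the sum stayed between 0.87 and 2.09, 0.72 and 2.15, 1.86 and 3.11, and 1.48 and 2.87, and it changed sign in none. The complex I genes led, at 2.28 and 3.24 in monocytes and 3.42 and 4.22 in B cells, and the complex IV genes followed at 1.53 and 1.65, and 2.24 and 2.13. mt-Nd2 was highest, with 3.93 and 5.12 in B cells, and mt-Co1 lowest of the abundant genes, with 1.85 and 1.5.

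**Figure D3:**
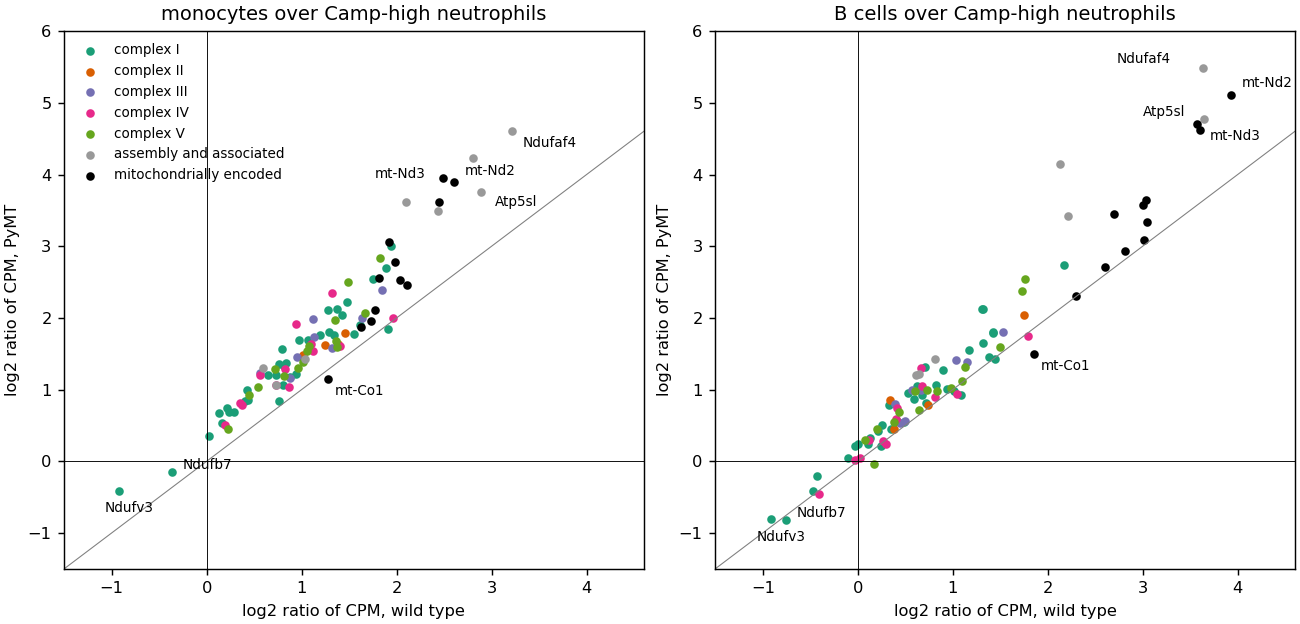
Log2 ratio of CPM over Camp-high neutrophils in wild type (x axis) and PyMT (y axis), for monocytes (left) and B cells (right); points are members with at least 50 UMIs coloured by complex, and the diagonal marks equal ratios. Mitochondrially encoded genes and the assembly factors Ndufaf4 and Atp5sl lie toward the upper right, with mt-Nd2 at 3.93 and 5.12 in B cells, and Ndufv3 and Ndufb7 lie below 0 on both axes; under the other scalings named in the text many nuclear points move below 0.

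A few nuclear members departed from the rest, and their promoters are shown because the genes lie at the opposite ends of the nuclear range. Ndufv3, an accessory subunit of the NADH-oxidising arm of complex I, was higher in Camp-high and Camp-mid neutrophils than in monocytes and B cells, with 209, 170, 104, 110 and 111 CPM in wild type and 206, 178, 97.3, 155 and 118 in PyMT. Its log2 ratio to Camp-high neutrophils was -0.93 (-1.07 to -0.79) and -0.41 (-0.49 to -0.33) in monocytes and -0.92 and -0.81 in B cells. Ndufb7, an accessory subunit of the membrane arm, had 355, 302, 200, 275 and 210 CPM in wild type and 323, 290, 173, 290 and 182 in PyMT. Its ratio was -0.37 and -0.15 in monocytes and -0.76 and -0.82 in B cells. Neither gene changed sign in any alternative, and both were below their Camp-high level also in the Camp-low neutrophils.

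At the other end, Ndufaf4, which assists the assembly of complex I, had 2.66, 8.62, 4.35, 24.8 and 33.2 CPM in wild type and 0.925, 2.07, 2.50, 22.6 and 41.4 in PyMT. Its log2 ratio to Camp-high neutrophils was 3.22 (2.76 to 3.68) and 4.61 (3.92 to 5.39) in monocytes and 3.64 and 5.48 in B cells. Atp5sl, also known as Dmac2 and linked to complex I assembly, had 2.52, 5.74, 0, 18.6 and 31.6 CPM in wild type and 1.44, 2.23, 2.80, 19.5 and 39.3 in PyMT, with ratios of 2.89 and 3.76 in monocytes and 3.65 and 4.77 in B cells. Both rest on few UMIs in the Camp-high neutrophils, 72 and 68 in wild type and 18 and 28 in PyMT.

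Promoter sequences from RefSeq (GRCm38.p6) were found for 71 of the 86 nuclear members, as windows from 250 bases before to 50 after the gene start. The motifs searched on both strands were GCGCA, any base and GCGC in a row, the site of NRF1, CCGGAAG, an ETS family site bound by NRF2 (GABP), and AAGATGGCG, a YY1 site. These factors are known regulators of respiratory genes. NRF1 letters were in 19 members (26.8%), against 5.19% of all 27025 genes with a listed promoter. ETS letters were in 17 (23.9%, against 9.93%) and YY1 letters in 7 (9.86%, against 1.64%). At least 1 of the 3 motifs was in 37 members (52.1%, against 15.1%). Each gene was scored over all its listed starts, and the background includes genes not expressed in these cells. By complex the counts were 15 of 32 for complex I, 3 of 3 for II, 3 of 5 for III, 3 of 12 for IV, 10 of 13 for V and 3 of 6 for assembly factors. Only nuclear members enter these counts, and a match is a description of letters, not of binding. The 250 bases upstream of the RefSeq start are given for 4 members that mark the ends of the class and library comparisons. They read 5′ to 3′ on the gene's strand, with motif letters in capitals. Ndufv3 (chr17:31519865-31520114, plus strand) has none of the 3 motifs in this stretch, and Ndufb7 (chr8:83566508-83566757, plus strand) has the ETS letters. Ndufaf4 (chr4:24897833-24898082, plus strand) and Atp5g2 (chr15:102671048-102671297, minus strand) both have the NRF1 letters. In GENCODE M21 the Ndufv3 and Ndufaf4 stretches end just before the gene. There Ndufb7 starts at 83566671, so the last part of its stretch, with the ETS letters, lies inside the gene. The Atp5g2 stretch lies wholly inside its gene, which starts at 102672352.
Ndufv3: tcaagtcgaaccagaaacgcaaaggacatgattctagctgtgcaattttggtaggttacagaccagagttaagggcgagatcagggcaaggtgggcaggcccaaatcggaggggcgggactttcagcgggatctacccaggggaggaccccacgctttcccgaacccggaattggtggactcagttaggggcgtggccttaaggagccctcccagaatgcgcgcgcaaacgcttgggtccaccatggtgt
Ndufb7: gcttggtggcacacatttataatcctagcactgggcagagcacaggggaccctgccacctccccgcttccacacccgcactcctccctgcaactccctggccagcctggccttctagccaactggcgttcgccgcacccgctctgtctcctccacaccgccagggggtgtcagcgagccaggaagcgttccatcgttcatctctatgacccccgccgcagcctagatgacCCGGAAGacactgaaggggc
Ndufaf4: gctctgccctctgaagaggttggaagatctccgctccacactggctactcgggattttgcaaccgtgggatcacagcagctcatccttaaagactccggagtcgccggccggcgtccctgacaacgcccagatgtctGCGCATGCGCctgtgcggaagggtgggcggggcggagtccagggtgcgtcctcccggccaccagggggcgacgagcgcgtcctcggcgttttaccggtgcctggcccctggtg
Atp5g2: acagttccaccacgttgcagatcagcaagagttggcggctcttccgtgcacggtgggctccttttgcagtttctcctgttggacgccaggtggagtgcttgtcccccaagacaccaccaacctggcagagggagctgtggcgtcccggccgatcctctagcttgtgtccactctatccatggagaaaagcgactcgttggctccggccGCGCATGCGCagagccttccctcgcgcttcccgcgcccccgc
The G and C content of these stretches was 57.6%, 63.6%, 66.4% and 62.8%.

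Among neutrophils, Camp falls as cells leave the granule-forming stages, so Camp-low cells were compared with Camp-high cells in each library. In PyMT, where both sums are large, 1 of 80 nuclear members was at least 1.5-fold higher in Camp-low cells and 27 were lower, against 26.7% and 20.7% of all genes. The member median was -0.43 and that of all genes 0.05. The summed nuclear level was 0.31 lower on the log2 scale (0.30 to 0.32 lower), with a range of -0.62 to -0.23 over the alternatives and no change of sign. Without cells of 2 classes (neutrophils holding Csf1r or Ccr2 UMIs, and cells meeting both other rules) 42 were lower in PyMT and 52 in wild type. The shares of all genes without those cells are not given here, so whether members moved more than other genes is not shown. In wild type, on 56 Camp-low cells, 4 of 82 were higher and 18 lower, against 40.5% and 16.2% of all genes, with medians of -0.23 and 0.34 and a sum of -0.17 (-0.77 to -0.17 over the alternatives). The 4 higher ones (Ndufaf1, Ndufaf2, Ndufaf4 and Atp5sl, named for this count) had 0 to 2 wild-type Camp-low UMIs. Ndufaf2 and Atp5sl had 0 and count as higher only through the floor of 3 counts, as do 1273 of all genes. Without such genes 2 members (2.44%) and 25.6% of all genes were higher. Of the 8513 genes, 1456 were at 0 in wild-type Camp-low cells, and the floor raises their median of 0.34. The distance between the 2 wild-type medians is therefore uncertain.

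Complex I was the lowest relative to Camp-high cells, at -0.44 in PyMT (-0.46 to -0.42) and -0.36 in wild type (-0.47 to -0.26). Complexes III, IV and V were at -0.27, -0.28 and -0.26 in PyMT. Complex II was at 0.13 in PyMT (0.04 to 0.21), and turned below 0 with the class-rule genes or the 50 most abundant genes out of the total and without cells of 2 classes. Of its genes, Sdhd was at 72.0 CPM in PyMT Camp-low against 48.6 in Camp-high cells (log2 ratio 0.57, 0.42 to 0.71).

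Single subunits of the same complex went opposite ways along this axis. Ndufa8, an accessory subunit of complex I, was at 163 CPM in PyMT Camp-low and 109 in Camp-high cells (0.58, 0.48 to 0.67). Ndufa5, another accessory subunit, was at 8.5 and 23.2 CPM (-1.45, -1.80 to -1.11). Uqcrb, a ubiquinone-binding subunit of complex III, was at 63.5 and 164 CPM (-1.37, -1.5 to -1.25). In wild type Ndufa8 was at 126 and 109 CPM, Ndufa5 at 21.7 and 37.1, and Uqcrb at 91.3 and 182, the same order on far fewer UMIs. Over the alternatives the wild-type log2 ratio ran from -0.27 to 0.24 for Ndufa8 and from -2.43 to 0.31 for Ndufa5. Their wild-type directions were thus not settled, while Uqcrb stayed between -1.66 and -0.86.

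The 2 wild-type extremes were Ndufb3, at 52.2 CPM in Camp-low and 124 in Camp-high cells (-1.25, -2.20 to -0.44), and Ndufv3, at 104 and 209 CPM (-1.0, -1.64 to -0.43). Atp5l was the highest by the interval bound nearest 0, at 652 against 497 CPM (0.39, 0.15 to 0.62), and stood higher in Camp-low cells in PyMT too, at 513 against 390 CPM. In these PyMT Camp-low cells all 11 immediate-early genes examined were at least 1.5-fold higher (6713 against 1467 CPM in sum) and so were the nuclear-retained RNAs Malat1 and Neat1 (16440 against 4607 CPM). Their part in the lower share of the members was not tested.

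The mitochondrially encoded sum was at -0.08 in PyMT and -0.16 in wild type in Camp-low over Camp-high cells, and at -0.35 and -1.31 without cells of 2 classes, where the wild-type Camp-low value rests on 289 UMIs. In PyMT its complex I genes were at 0.41 with all cells (0.36 to 0.47) and turned to -0.09 (-0.15 to -0.03) without those cells. Its complex IV genes were at -0.16 (-0.18 to -0.14) and at -0.36.

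A finer split by Camp gave the same order. With class-rule genes out of the total, nuclear members took 2.14% of wild-type UMIs in cells with Camp at 8% or more, 2.12% at 6 to 8%, 2.14% at 4 to 6%, 2.04% at 2 to 4%, 1.95% at 1 to 2% and 1.47% at 0.25 to 1%. In PyMT the shares were 1.80% at 6 to 8%, 1.77% at 4 to 6%, 1.67% at 2 to 4%, 1.43% at 1 to 2%, 1.30% at 0.25 to 1% and 1.2% below that. The PyMT level was below the wild-type level in each of the 5 bins that both libraries filled. Without cells that held Csf1r or Ccr2 UMIs the gap narrowed in the middle bins: it was 1.91% against 1.76% at 4 to 6%, 1.67% against 1.57% at 2 to 4% and 1.46% against 1.30% at 1 to 2%.

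**Figure D4:**
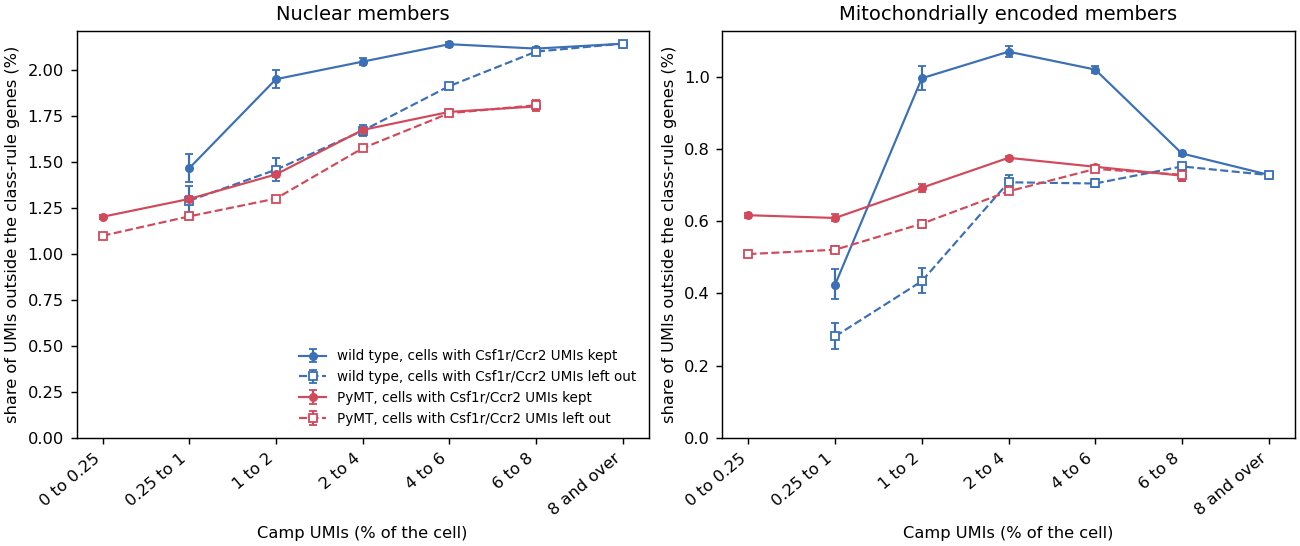
Share of UMIs (percent, with class-rule genes out of the total) taken by nuclear and by mitochondrially encoded members in neutrophils binned by Camp (x axis, percent of the cell's UMIs), in both libraries, with all cells (solid) and without those holding Csf1r or Ccr2 UMIs (dashed); bars are exact 95% intervals. The nuclear share goes from 2.14% to 1.47% in wild type and from 1.80% to 1.2% in PyMT between the high and the low end, and bins hold at least 20 cells.

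The mitochondrial share in the same bins depended on which cells were kept. With all cells it was 0.729%, 0.788%, 1.02%, 1.07%, 0.996% and 0.425% in wild type from the highest to the lowest bin. Without the cells holding Csf1r or Ccr2 UMIs it was 0.728%, 0.752%, 0.705%, 0.708%, 0.434% and 0.281%. In PyMT, from 6 to 8% down to below 0.25%, it was 0.726%, 0.751%, 0.776%, 0.693%, 0.609% and 0.617% with all cells and 0.729%, 0.745%, 0.683%, 0.593%, 0.521% and 0.509% without them. The wild-type values at 1 to 6% Camp were thus above those of the higher bins with those cells and not without them. Without them PyMT was above wild type at 4 to 6% (0.745% against 0.705%), at 1 to 2% (0.593% against 0.434%) and at 0.25 to 1% (0.521% against 0.281%). It was below wild type at 6 to 8% (0.729% against 0.752%) and at 2 to 4% (0.683% against 0.708%). The wild-type bins at 1 to 2% and 0.25 to 1% then held 63 and 42 cells.

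PyMT and wild-type cells were then compared class by class. In Camp-high neutrophils 0 of 83 nuclear members with at least 50 UMIs were past 1.5-fold above wild type and 25 past 1.5-fold below it, against 3.21% and 41.1% of all genes. The member median was -0.29 and that of all genes -0.45 (log2, PyMT over wild type), so the members were less far below wild type than the median gene. Their sum was 10472 CPM in PyMT and 13016 in wild type (-0.31, -0.32 to -0.31), and turned to at most 0.14 with the trimmed mean of M-values or the median of ratios. Those scalings moved the median of all genes by 0.43 and 0.45, and the members' distance of 0.16 from that median stayed as it was. By complex the sums were at -0.30 (I), -0.11 (II), -0.39 (III), -0.30 (IV) and -0.33 (V), all of which the same scalings turned above 0. Without cells of 2 classes 8 members were lower in place of 25. The share of all genes for that choice is not given here, so the change may not be particular to the members.

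The nuclear extremes in Camp-high cells came from different complexes. Ndufaf4 was at 0.925 CPM in PyMT and 2.66 in wild type (-1.53, -2.36 to -0.77). Atp5g2 was at 79.7 and 142 CPM (-0.84, -0.92 to -0.75) and Ndufa4 at 134 and 231 CPM (-0.79, -0.85 to -0.72). Ndufs8, a core iron-sulfur subunit of complex I, and Cox7a2l were slightly higher in PyMT, at 45.7 against 40.7 CPM (0.17, 0.04 to 0.30) and 194 against 181 CPM (0.10, 0.04 to 0.16). Ndufa4 and Cox7a2l, both counted in complex IV, thus lay on opposite sides of 0. These genes were named as extremes, so their range does not describe the typical subunit.

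Among the mitochondrial genes the gap in Camp-high cells lay mostly in mt-Nd1 to mt-Nd4 and mt-Nd4l of complex I and in mt-Cytb. The complex I sum was lower in PyMT by 0.95 on the log2 scale (0.92 to 0.99), while that of complex IV was lower by 0.05. Without cells of 2 classes the complex I genes were at -0.63 (-0.67 to -0.59) and the complex IV genes turned to 0.15. Of the complex I genes, mt-Nd5 was then at -0.07 (-0.22 to 0.08), and mt-Nd6 had 21 UMIs in each library. With all cells, mt-Nd3 was at -1.72 (-1.94 to -1.5), mt-Nd2 at -1.46 (-1.59 to -1.34) and mt-Nd1 at -1.12 (-1.18 to -1.06). mt-Nd4 was at -0.72, mt-Cytb at -0.54 and mt-Co1 at 0.10 (0.08 to 0.12). None of these 6 changed sign in any alternative. Over the alternatives mt-Nd1 ran from -1.13 to -0.67, mt-Nd2 from -1.47 to -1.01, mt-Nd3 from -1.72 to -1.24 and mt-Co1 from 0.10 to 0.55.

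With all cells, Camp-mid held the widest library difference of the 3 neutrophil classes in the nuclear sum; without cells of 2 classes the sums were at -0.23 in Camp-high, -0.12 in Camp-mid and 0.0032 in Camp-low cells. Of 81 nuclear members 0 were higher and 39 lower, against 5.31% and 49.2% of all genes, with medians of -0.58 and -0.57. The members thus lay where the background lay. Their sum was -0.54 and reached 0.03 with the scalings named above. Ndufaf4 (-2.06), Atp5g2 (-1.24, at 78.2 against 185 CPM) and Uqcrfs1, the Rieske iron-sulfur protein of complex III (-1.21, at 65.8 against 152 CPM), were lowest, and Ndufs4, a complex I subunit, highest, at 122 against 109 CPM (0.17). Without cells of 2 classes 2 nuclear members were lower and 6 higher, and the shares of all genes for that choice are not given here. The wild-type Camp-mid cells that held Csf1r or Ccr2 UMIs had 18633 CPM of nuclear members and the rest 10007. The mitochondrially encoded sum was at -0.70, with its complex I genes at -1.44 and its complex IV genes at -0.44. Without cells of 2 classes the sum was at -0.01 (-0.05 to 0.03), the complex I genes stayed below 0, at -0.85 (-0.95 to -0.75), and the complex IV genes turned to 0.23 (0.18 to 0.28).

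In Camp-low neutrophils 1 of 77 nuclear members (the assembly factor Ndufaf3, on 1 wild-type UMI) was higher and 30 lower, against 18.6% and 33.7% of all genes, with medians of -0.45 and -0.23. Because a wild-type sum at 0 is set to 3 counts, some of all genes can count as lower although seen only in PyMT. How many do was not counted, so the 33.7% and the -0.23 are uncertain. No nuclear member counted here was at 0 in wild type. The nuclear sum was -0.46 (-0.51 to -0.40). It reached 0.04 with stricter class thresholds and 0.0032 (-0.08 to 0.08) without cells of 2 classes. Cox7c, a small complex IV subunit, was at 146 CPM in PyMT and 348 in wild type (-1.26, -1.58 to -0.91), Cox7a2 at 175 and 361 (-1.04), and Ndufab1, the mitochondrial acyl carrier protein, at 14 and 47.8 (-1.77, -2.66 to -0.74). The wild-type values rest on 80, 83 and 11 UMIs from 56 cells. The mitochondrially encoded sum was at -0.14 and ran from -0.23 to 1.29 over the alternatives, so its direction was not settled.

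**Figure D5:**
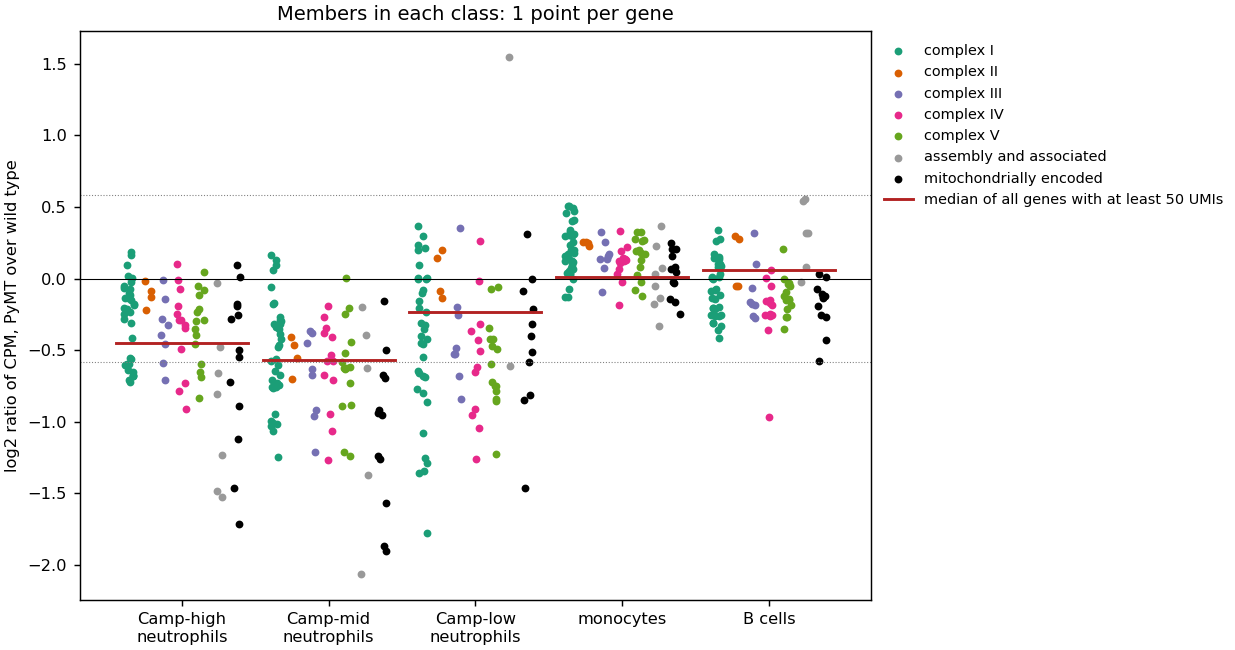
Log2 ratio of CPM, PyMT over wild type, of each member in the 5 classes (points are members with at least 50 UMIs, coloured by complex; red lines are medians of all genes and dotted lines mark 1.5-fold). Most members lie below 0 in the 3 neutrophil classes and near 0 in monocytes and B cells, the neutrophil sums turn above 0 under some scalings or cell choices named in the text, and mt-Nd3 lies lowest in Camp-high cells at -1.72.

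In monocytes the 2 libraries were close. Of 84 nuclear members 0 were 1.5-fold higher and 0 lower, against 7.84% and 9.06% of all genes, but 70 of the 84 were above 0. The member median was 0.15 and that of all genes 0.01, and the sum was 26241 CPM in PyMT and 24035 in wild type (0.13, 0.12 to 0.14), between 0.09 and 0.14 over the alternatives. All 5 complexes were above 0 in sum: complex I at 0.15, II at 0.25, III at 0.08, IV at 0.11 and V at 0.13. Ndufv3 was at 155 against 110 CPM (0.50, 0.34 to 0.65) and Ndufs8 at 171 against 125 (0.46, 0.31 to 0.60). Cox7c was lowest, at 615 against 698 CPM (-0.18, -0.25 to -0.12), with Ndufa6 and Ndufa2 at -0.13 each.

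B cells went slightly the other way. Of 82 nuclear members 0 were higher and 1 lower (Cox6b2), against 9.85% and 7.43% of all genes, and 53 were below 0. The member median was -0.09 and that of all genes 0.06, and the sum was 17824 CPM in PyMT and 19508 in wild type (-0.13, -0.15 to -0.11), between -0.19 and -0.11 over the alternatives. Ndufa3, an accessory subunit of complex I, was at 170 against 226 CPM (-0.41, -0.58 to -0.24), Cox7c at 408 against 522 (-0.36, -0.47 to -0.25) and Ndufa2 at 324 against 408 (-0.33). Atp5b, the catalytic beta subunit of complex V, was at 424 against 367 CPM (0.21, 0.08 to 0.33), Uqcrc1, a core protein of complex III, at 122 against 97.9 (0.32) and Sdha at 109 against 89.5 (0.28). Erythroid marker genes summed to 2470 CPM in the PyMT and 13.2 CPM in the wild-type B cells, and their part in the lower level was not tested.

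With all cells, the mitochondrial genes differed little between the libraries in these classes. Their sum was 0.09 in monocytes and -0.11 in B cells, and the complex I genes were at 0.01 (-0.02 to 0.04) and -0.16 (-0.19 to -0.13). The largest single value was that of mt-Nd3 in B cells, at 278 against 415 CPM (-0.58). Both gaps in the sum were wider without cells that met both the monocyte and the B cell rule. Mitochondrial genes then took 3.73% of wild-type and 3.17% of PyMT B cell UMIs, against 3.27% and 3.04% with all cells. In monocytes they took 1.66% and 1.84%, against 1.75% and 1.87%. The complex I share of mitochondrial UMIs was thus 19.4% to 20.6% in monocytes and 23.5% to 24.4% in B cells, against 8.71% and 14.5% in PyMT and wild-type Camp-high neutrophils; whether the library difference differs between classes was not tested.

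Members under 50 UMIs in a comparison were not counted there. In all 5 class comparisons these included Cox7a1 and Atp5s, and in 4 of them Ndufaf6. Camp-mid added Ndufaf2 and Ndufaf5, B cells added Ndufaf1, and Camp-low added Ndufaf1, Ndufaf2, Ndufaf4, Ndufaf5, Cox6b2 and Atp5sl, mostly assembly factors of low level. mt-Nd6 was under the limit in every class but Camp-high and mt-Atp8 in Camp-low.

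Other genes that serve the pathway were taken from lists compiled for this comparison. In Camp-high neutrophils, of 9 genes for the electron carrier cytochrome c and for adenine nucleotide and anion exchange, 0 were 1.5-fold higher in PyMT and 1 lower, where 41.1% of all genes were lower. Cytochrome c itself (Cycs) was at 63.5 against 94.8 CPM (-0.58), and the nucleotide exchanger Slc25a4 at 3.39 against 6.36 (-0.91). Of 28 assembly factors of complexes II to V, 0 were higher and 16 lower (median -0.65), with Cox20, a complex IV factor, at 32.2 against 67.8 CPM (-1.08). Of 16 import genes 0 were higher and 8 lower (median -0.59), with the chaperonin Hspe1 at 8.27 against 26.9 CPM (-1.70) and Timm13 at 51.4 against 83.2 (-0.70). Of 74 genes of the mitochondrial ribosome 1 was higher and 28 lower (median -0.50), a share of lower genes below that of all genes. The medians of the assembly, import and ribosome lists lie below that of the members (-0.29) and that of all genes (-0.45).

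Of the genes that copy and transcribe mitochondrial DNA 0 were higher and 4 lower of 9 (median -0.39), near the background, among them Tfam, which packages mitochondrial DNA, at 3.60 against 6.73 CPM (-0.91). Citric acid cycle genes were nearer to wild type, with 0 higher and 3 lower of 13 (median -0.10). Glycolysis genes lay above the background, with 2 higher and 1 lower of 13 (median 0.35): Pgk1 was at 72.1 against 47.1 CPM (0.61), Pkm at 1166 against 829.98 (0.49), and the hexokinase Hk2 at 31.1 against 55.5 (-0.84).

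In monocytes the glycolysis list differed most, with 8 higher and 1 lower of 13 (median 0.62), against the 7.84% of all genes that were higher. Pgk1 was at 72.1 against 34.9 CPM (1.05) and Gapdh at 0.80. Citric acid cycle genes were 0 higher and 0 lower of 13 with a median of 0.31, among them the fumarase gene Fh1 at 57.5 against 41.6 CPM (0.47) and Idh3b at 89.2 against 68.7 (0.38). Slc25a4 was at 180 against 116 CPM (0.63) and the anion channel Vdac1 at 103 against 69.5 (0.57). In B cells glycolysis had 1 higher and 1 lower of 12 (median 0.25), and citric acid cycle genes 0 and 0 of 13 (median 0.17). The glycolysis median was above the oxidative phosphorylation median in all 5 classes, at 0.35 against -0.29, 0.60 against -0.58, 0.31 against -0.45, 0.62 against 0.15 and 0.25 against -0.09.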

How the data were processed

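Per the labels' protocols, the libraries were made with version 2 of the 10x 3′ chemistry and read to a mean of 48488 reads a cell. The submitters' processing notes name Cell Ranger 2.1.0 and the mm10 build. The sources used here do not say which barcodes were called as cells. The deposited files hold raw UMI counts per gene and cell.

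Cells of at least 200 genes were assigned to classes by the stated thresholds and summed per library and class. Sums were scaled to CPM of their own total. Log2 ratios have exact conditional binomial intervals, levels exact Poisson intervals and shares exact Clopper-Pearson intervals, all at 95% and for counting error only. A sum at 0 was set to a floor of 3 counts for a ratio. Counts past 1.5-fold cover genes with at least 50 UMIs in the 2 sums compared. With 1 library per group no test was run. No doublets were removed in the main sums; as an alternative, 241 wild-type and 671 PyMT cells most like simulated doublets were left out.

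The members and lists were chosen with earlier results of these data known. Named members are the 2 highest of each complex, the 3 highest and 3 lowest per class between libraries (2 and 2 between classes) by the interval bound nearest 0, all mitochondrial and Sdh genes, and isoform pairs. Not every gene that this rule selects is reported here. Alternatives changed the scaling, the UMI minimum, the class thresholds and the cells kept. edgeR 4.0.16 (trimmed mean of M-values) and DESeq2 1.42.0 (median of ratios) gave scaling factors only, in R 4.3.3. The rest ran in Python 3.11.15 with numpy 2.4.6, scipy 1.17.1 and scikit-learn 1.9.0, was tested on simulated data, and took gene positions from GENCODE M21.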

Additional observations from a re-analysis of the deposited data

Results flagged for a closer look

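Ndufaf3, an assembly factor of complex I, was higher in PyMT than in wild type in Camp-low neutrophils and lower in Camp-mid neutrophils. In Camp-low cells it stood at 12.7 CPM in PyMT (127 UMIs) and 4.35 CPM in wild type (1 UMI), a log2 ratio of 1.55 with a counting interval of -0.96 to 6.86. The Camp-mid levels were 15.3 CPM (PyMT) and 23.6 CPM (wild type), with a ratio of -0.62 (-1.0 to -0.24). The opposite directions in the 2 classes brought it up, and the difference between them was not tested. The Camp-low direction rests on 1 wild-type UMI.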

How the results depend on the processing

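Nuclear members past 1.5-fold are counted below in the report's order of comparisons, first PyMT over wild type and then classes within a library. Shares of all genes under each setting are not given here, so a moved count may not be particular to the members. Counts that moved by over 1.5 times, and sums past 1.5-fold that changed sign, are listed by setting; sums under 1.5-fold that changed sign are not listed here. Dropping the cell filter altogether changed no count. No paired analysis was possible because each group has 1 library.

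With a minimum of 10 UMIs, 1 member was higher in PyMT Camp-high neutrophils, and 7 (wild type) and 2 (PyMT) were higher in Camp-low than in Camp-high cells. With a minimum of 200 UMIs, 0 were higher in PyMT Camp-low cells, 0 lower in PyMT B cells, and 0 higher in Camp-low than in Camp-high cells of either library. With a minimum of 500 genes and a maximum of 5% mitochondrial UMIs per cell, 1 was higher in PyMT B cells.

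Without cells of 2 classes, PyMT over wild type gave 8 lower in Camp-high, 6 higher and 2 lower in Camp-mid, 18 higher and 6 lower in Camp-low cells, and 2 higher and 0 lower in B cells. Camp-low over Camp-high then gave 1 higher and 52 lower in wild type and 0 higher and 42 lower in PyMT, and wild-type B cells over Camp-high gave 5 lower. The assembly factor sum in Camp-mid cells turned to 0.045.

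With cells thinned to 1000 UMIs, PyMT over wild type gave 1 higher and 6 lower in Camp-high, 22 lower in Camp-mid, 13 higher and 12 lower in Camp-low cells, 2 higher in monocytes, and 1 higher and 0 lower in B cells. Wild-type Camp-low over Camp-high gave 34 lower, and the assembly factor sum turned to 0.43.

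Without cycling cells there were 9 lower in Camp-high, 4 higher and 19 lower in Camp-low cells, and 2 higher in wild-type Camp-low over Camp-high. Without doublets there were 1 higher and 0 lower in B cells and 0 higher in PyMT Camp-low over Camp-high. With equal weight per cell there were 9 lower in Camp-high, 21 lower in Camp-mid, 5 higher and 14 lower in Camp-low cells and 2 higher in B cells, with 1 higher and 34 lower in wild-type and 3 higher in PyMT Camp-low over Camp-high.

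With stricter class thresholds, there were 11 lower in Camp-high, 18 lower in Camp-mid, 12 higher and 13 lower in Camp-low cells, 1 higher in monocytes and 0 lower in B cells. Camp-low over Camp-high gave 7 higher and 47 lower in wild type and 42 lower in PyMT.

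Scaling by the median of ratios gave 2 higher and 3 lower in Camp-high, 4 higher and 7 lower in Camp-mid, and 17 lower in Camp-low cells. Over Camp-high cells it gave 18 higher and 10 lower in wild-type and 21 and 10 in PyMT monocytes, and 14 and 17 in wild-type and 10 and 31 in PyMT B cells. Sums turned to -0.21 (complex I) and -0.0088 (IV) in wild-type monocytes, to -0.23 (I), -0.081 (IV) and -0.035 (all nuclear) in PyMT monocytes, to -0.011 (II) and -0.12 (V) in wild-type B cells, and to -0.31 (II), -0.17 (III), -0.63 (IV), -0.41 (V) and -0.54 (all nuclear) in PyMT B cells.

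The trimmed mean of M-values gave 2 higher and 3 lower in Camp-high, 4 and 7 in Camp-mid, 17 lower in Camp-low cells, and 28 lower in wild-type Camp-low over Camp-high. Over Camp-high cells it gave 18 higher and 10 lower in wild-type and 23 and 9 in PyMT monocytes, and 14 and 16 in wild-type and 10 and 29 in PyMT B cells. Sums turned to -0.22 (I), -0.016 (IV) and -0.0021 (all nuclear) in wild-type monocytes, to -0.20 (I) and -0.042 (IV) in PyMT monocytes, to -0.10 (V) in wild-type B cells, and to -0.24 (II), -0.10 (III), -0.55 (IV), -0.34 (V) and -0.47 (all nuclear) in PyMT B cells.

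With the 50 most abundant genes out of the total there were 7 lower in Camp-high and 1 higher and 10 lower in Camp-mid cells, and 30 (wild type) and 54 (PyMT) lower in Camp-low over Camp-high. Monocytes over Camp-high gave 17 higher and 10 lower in wild type and 33 and 4 in PyMT, and B cells 18 and 12, and 17 and 16. Sums turned to -0.23 (I), -0.029 (IV) and -0.014 (all nuclear) in wild-type monocytes, to -0.0026 (V) in wild-type B cells, and to -0.20 (IV) and -0.12 (all nuclear) in PyMT B cells.

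With class-rule genes out of the total there were 19 lower in Camp-mid cells and 46 lower in PyMT Camp-low over Camp-high. Monocytes over Camp-high gave 31 higher and 3 lower in wild type and 50 and 2 in PyMT, and B cells 18 and 12, and 23 and 9. Sums turned to -0.022 (I) in wild-type monocytes and -0.047 (IV) in PyMT B cells. Scalings shift all genes alike; the cause of the other differences was not tested.

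Depth limits the wild-type Camp-low sum most, since its 56 cells hold 229891 UMIs and several assembly factors have 0 to 2 UMIs there. Classes come from UMI thresholds and not from clusters, and 1718 PyMT and 602 wild-type neutrophils have Camp between 3% and 5%, near the boundary of 4%. Pooled animals and 1 library per group leave animal and library differences unseparated from the tumour-bearing state.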

Other observations

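The cells that met no class rule, 606 in wild type and 984 in PyMT, held 1.66% and 1.56% of their UMIs in nuclear members of oxidative phosphorylation, between the neutrophil and the monocyte shares. Their mitochondrially encoded members stood at 13068 and 13177 CPM, or 0.787 and 0.846 UMIs per nuclear UMI, above each neutrophil class and below B cells.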
